A study of Homo sapiens with 12 samples.

Results

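HCT116 p53+/+ and HCT116 p53-/- cells were compared under the same treatment, 4 μM INZ for 18 hours, on 3 arrays of each line, across all 45033 features of a one-colour expression array. These 6 arrays were chosen by genotype and treatment alone from the 12 arrays of the series, and the other 6 held the same lines given DMSO and harvested at the same 18 hours. HCT116 is a human colon cancer cell line, and its p53-/- derivative has no active p53. INZ (inauhzin) is a small molecule that activates p53. Each genotype was 1 line, so what differs through p53 and what differs between the lines for another cause cannot be told apart. The study describes the 3 arrays of a group as replicates. How their cultures were kept apart is not given in the sources used here, so the p-values measure the spread between these arrays. Values are log2 of normalised probe set intensity, differences are p53+/+ minus p53-/-, and a gene passed at an adjusted p under 0.05 by limma with Benjamini-Hochberg adjustment over all features. A gene name was found for 18866 features, which stand for 17185 genes, and the feature with the highest mean spoke for a gene with several.

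The transcription factor p53 is held low in unstressed cells by MDM2, a ubiquitin ligase whose own gene is a p53 target. When that control is lifted, p53 binds paired half-sites in the DNA of its target genes and raises genes of cell cycle arrest such as CDKN1A, of DNA repair such as DDB2, of apoptosis such as BBC3 and FAS, and of stress signalling such as GDF15. Genes of mitosis are known to fall where p53 raises CDKN1A, by way of repressor complexes of the E2F family. In colon cancer cells carrying normal p53, the balance between arrest and death genes is a common readout of compounds that act on p53.

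The arrays of p53+/+ cells with INZ were not alike. Replicate 3 correlated with the other 2 arrays of its group at 0.929 and 0.933 over all features, and with the 3 arrays of p53-/- cells with INZ at 0.957 to 0.972. The other pair of its group correlated at 0.968, and the p53-/- arrays with INZ among themselves at 0.963 to 0.975. On the first principal component of the 6 arrays, which held 50.3% of their variance, p53+/+ replicates 1 and 2 lay at -92.6 and -105.4, and replicate 3 at 55.9 beside the p53-/- arrays at 27.8 to 76.7. Median intensity was 87.6 to 93.9 over the 6 arrays. The lower quartile of intensity was 47.1 and 47.0 in p53+/+ replicates 1 and 2, 44.2 in replicate 3 and 44.2 to 45.1 in the p53-/- arrays. Genes with a wide gap between the lines did not all place replicate 3 alike: TP53I3 and CASP4, which passed, have it with its own group, whereas RRM2 has it within the p53-/- range. For most gene lists and for several single genes, values are given with and without this array.

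With INZ, 98 genes were higher in p53+/+ than in p53-/- cells, which is 0.570% of the genes measured, and 17 were lower, which is 0.0989%. The higher genes were led by TP53I3, a quinone oxidoreductase gene raised by p53, and CASP4, an inflammatory caspase, and spanned log2 differences of 1.32 to 5.11 with a median of 1.96. The lower genes were led by ZBED2, a zinc finger transcription factor, and AXIN2, a scaffold protein that holds Wnt signalling down, and had a median of -1.71. The median of all genes was 0.01. Counted by feature, 218 passed, 186 higher and 32 lower, of which 79 and 15 have no gene name here, while 4638 features (10.3%) had an unadjusted p under 0.05. No background level of the probes was used here. In p53-/- cells with INZ, 30 of the 98 genes had a mean below the median feature (6.41), and 12, NPM2, SORCS2, CXCR2 and HLA-DRA among them, had one below the lowest of the INZ arrays' lower quartiles (5.47), so that their fold rests on a dim reading and is less certain. The same limit holds for lower genes that were dim in p53+/+ cells with INZ. There 6 of the 17, AXIN2, WNT16 and DLX1 among them, had a mean below the median feature, and 2 had one below 5.47. The 98 and the 17 genes each had groups that did not overlap, a state that 8.91% of all genes showed upwards and 7.80% downwards.

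The number of genes that passed turned on single arrays, as the plot of counts by arrays shows. Without p53+/+ INZ replicate 3, 1652 features passed, 707 higher and 945 lower, and all 218 features of the full set were among them. By gene, 285 were then higher (1.66% of all) and 352 lower (2.05%), the shares to set beside the counts given below without that array. Without any other single INZ array the count fell, to 74 and 77 without p53+/+ INZ replicates 1 and 2 and to 117, 69 and 59 without p53-/- INZ replicates 1, 2 and 3. Leaving out p53+/+ DMSO replicate 1, which enters only the estimate of spread, gave 342. Of the 115 genes, 30 passed in every setting in which they were tested, and these lead the account below. Those reported here are TP53I3, CASP4, ALOX5, NPM2, ACTA2, GRIN2C, CASP5, SORCS2, KRT23, TP53INP1, TNFRSF10C, GDF15, PRODH, BBC3, CDKN1A, RGS2, SYTL1, TMEM151A, DDB2, DRAM1, ARVCF, INPP5D, B3GALT6, GRHL3, CXCR2, UCP2 and ATF3, which were higher, and NECTIN3 and ZBED2, which were lower.

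**Figure D1:**
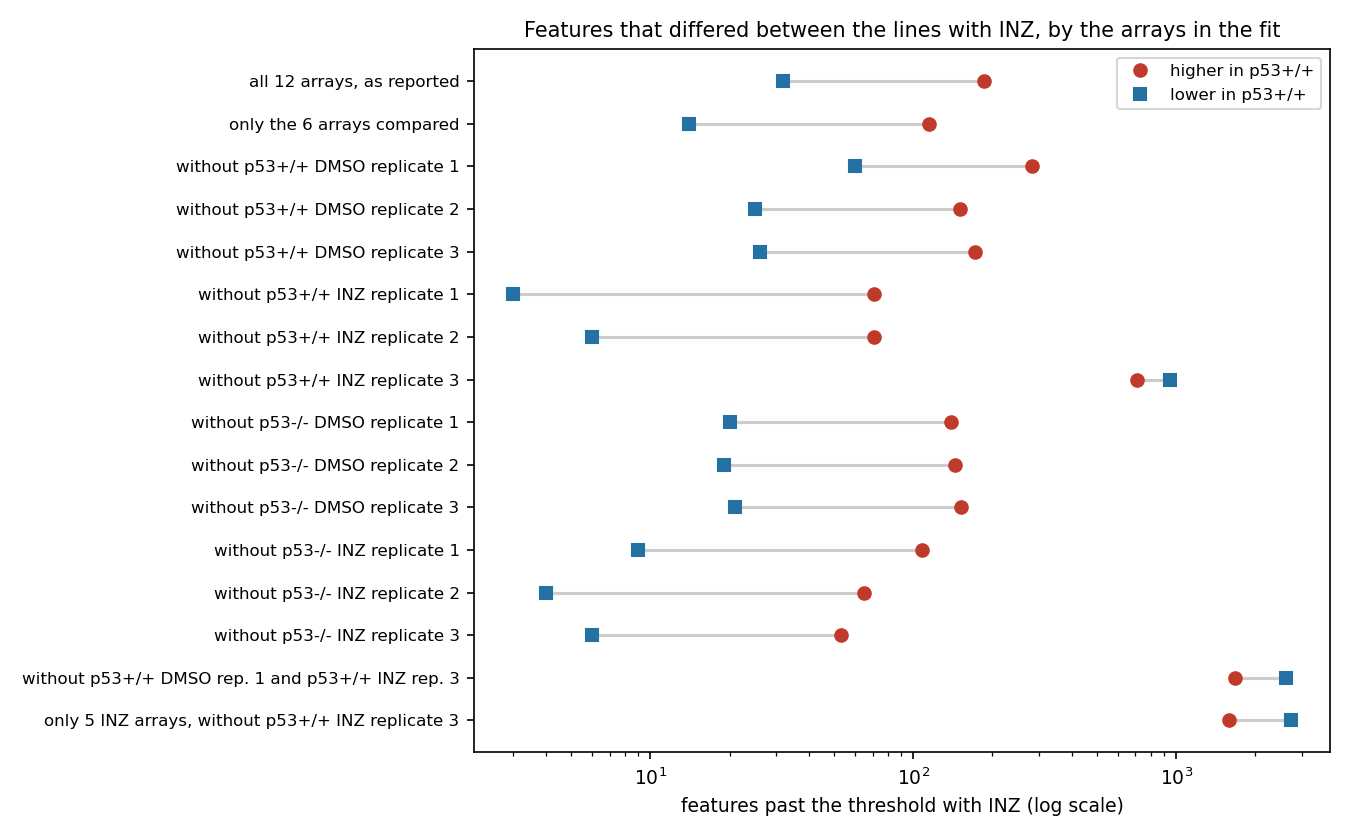
Number of features past the threshold between p53+/+ and p53-/- cells with INZ (x axis, log scale) for fits with all 12 arrays, with the 6 INZ arrays only and with arrays left out (rows). Circles count features higher and squares features lower in p53+/+ cells; with all arrays these were 186 and 32, and without p53+/+ INZ replicate 3 they were 707 and 945.

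The same genotype difference was measured with DMSO on 6 other arrays, where 27 genes were higher in p53+/+ cells (0.157%) and 20 were lower (0.116%). Of the 98 genes higher with INZ, 20 were higher with DMSO too, which is 20.4% of the INZ set and 74.1% of the DMSO set. Of the 17 lower genes, 7 were lower with DMSO too (41.2% and 35% of the sets). The 98 genes had a median difference of 1.96 with INZ and 0.59 with DMSO. With DMSO 86 of them kept their sign, and 64 differed by less than 2-fold. The 17 lower genes had medians of -1.71 and -1.51, and 15 kept their sign. Both sets were picked by their INZ difference, which by itself favours a wider median gap with INZ than with DMSO. Across all 17185 genes the differences with INZ and with DMSO had a Pearson correlation of 0.507 and a Spearman correlation of 0.457. These describe genes of the same pair of lines, which are not independent replicates.

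**Figure D2:**
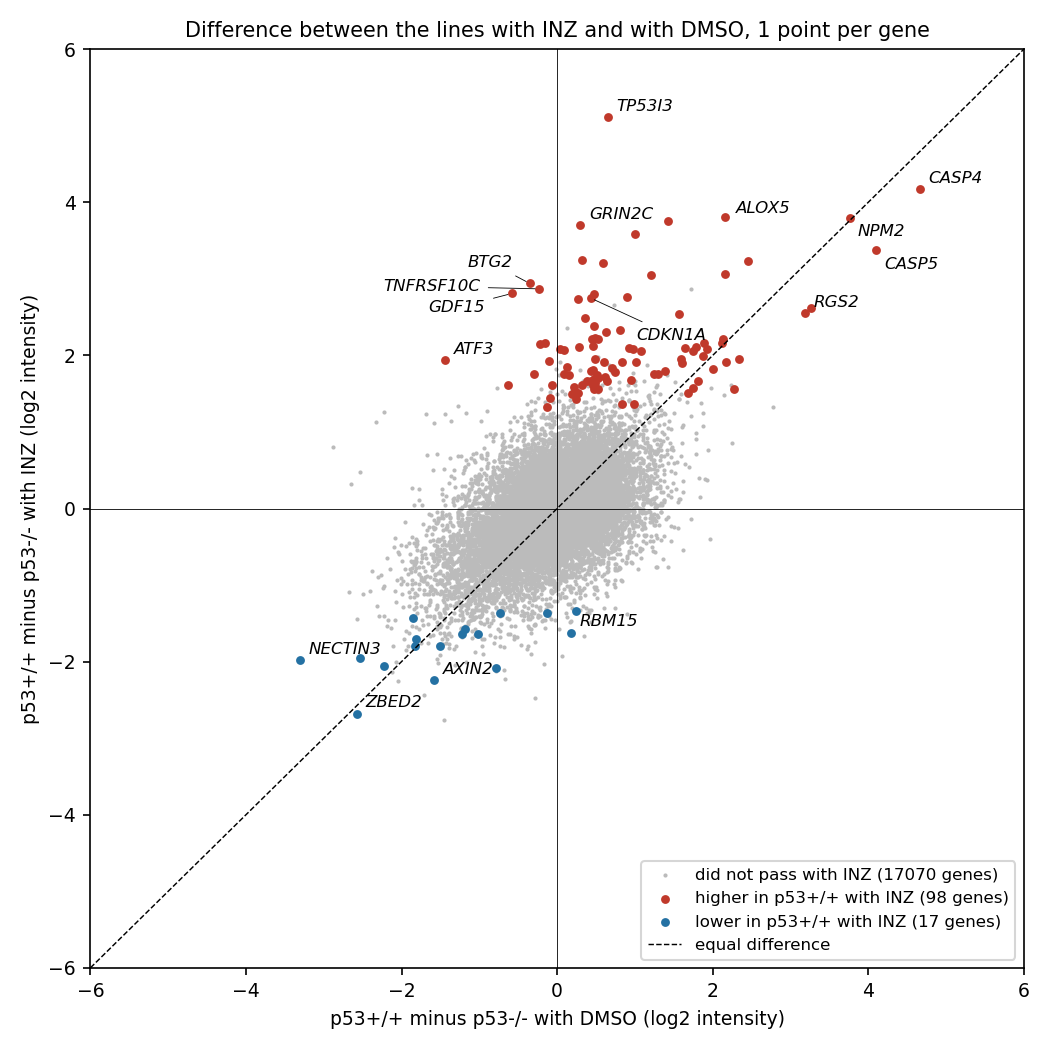
Difference between p53+/+ and p53-/- cells (log2 intensity) with INZ (y axis) against that with DMSO (x axis), 1 point per gene, with red and blue for the 98 higher and 17 lower genes with INZ. TP53I3, CDKN1A, GDF15, BTG2 and TNFRSF10C lie far above the dashed line of equal difference, whereas CASP4, CASP5, NPM2, RGS2 and ZBED2 lie near or below it.

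The 98 higher genes fell into kinds by where the gap lay. For 36, the 3 INZ arrays of p53+/+ cells all lay above the 3 DMSO arrays of that line while the p53-/- arrays with INZ did not all lie below theirs. CDKN1A, TP53I3, DDB2, BTG2 and FAS were of this kind. For 32, as for BBC3, KRT23, SYTL1 and MAD1L1, the p53-/- arrays with INZ all lay below the p53-/- arrays with DMSO while the p53+/+ arrays with INZ did not all lie above theirs. For 6, ATF3, GDF15, PRODH, RGS16, TSPAN1 and UCP2, the p53+/+ arrays lay above and the p53-/- arrays below. For the other 24, CASP4, CASP5, NPM2 and RGS2 among them, neither held. Over all 17185 genes the shares of these kinds were 7.47%, 12.9%, 0.279% and 79.4%. Counted apart from these kinds, the p53+/+ arrays with INZ lay wholly below the DMSO arrays of that line in 16 of the 98 genes. KRT23, MAD1L1 and CASP5 were among the 16, and over all genes that share was 8.61%. The 98 genes were picked for being high in the first INZ group and low in the second, so the counts are a description and were not tested.

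Of 16 measured p53 targets of cell cycle arrest and DNA repair, CDKN1A, BTG2 and DDB2 were higher in p53+/+ cells with INZ, none was lower and 13 did not pass. In 9 of the 16 the groups did not overlap, all upwards. The median difference of the list was 0.94 with INZ and -0.38 with DMSO, and without p53+/+ INZ replicate 3 it was 0.62, with 5 genes higher and none lower. The lists of p53 targets were drawn up with earlier results of these data known.

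CDKN1A (NM_078467), which encodes the cyclin-dependent kinase inhibitor p21, read 14.95, 14.64 and 15.12 in p53+/+ cells with INZ against 12.40, 11.75 and 12.30 in p53-/- cells with INZ. The lowest p53+/+ array lay well above the highest p53-/- array. The gap was 6.73-fold (4.37 to 10.4, 95% interval, adjusted p = 0.000427), against a log2 difference of 0.43 with DMSO (12.88, 13.38 and 12.91 against 12.75, 12.84 and 12.27). The other CDKN1A feature, NM_000389, gave a log2 difference of 2.88 (adjusted p = 0.00011). DDB2, a subunit of the complex that recognises ultraviolet damage in DNA, read 12.11, 12.26 and 12.25 against 10.26, 9.92 and 9.53. It was 4.93-fold higher (3.37 to 7.22, adjusted p = 0.000691), and its 3 p53+/+ arrays lay close together.

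BTG2, an antiproliferative gene, read 10.95, 10.49 and 11.09 in p53+/+ cells against 7.54, 7.96 and 8.22 in p53-/- cells with INZ, a 7.65-fold gap (3.59 to 16.3, adjusted p = 0.0198). Its DMSO arrays overlapped, at 6.09, 8.23 and 8.53 against 8.04, 7.48 and 8.38. The BTG2 call was lost on leaving out any INZ array but p53+/+ replicate 3, with an adjusted p of up to 0.104. SESN1, a sestrin that acts against oxidative stress, read 7.18, 7.80 and 8.24 against 6.47, 4.91 and 5.88 and narrowly missed the threshold (1.98, adjusted p = 0.0502), which it passed in 8 of 22 settings, among them that without p53+/+ INZ replicate 3 (1.73, adjusted p = 0.0474). GADD45A, a growth arrest and DNA damage gene, read 10.93, 10.87 and 10.75 against 9.99, 9.67 and 9.14 with INZ (1.25, adjusted p = 0.0628), and with DMSO the p53+/+ arrays were the lower ones (9.07, 9.40 and 9.30 against 10.37, 10.49 and 10.42).

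Of 17 measured p53 targets of apoptosis, TP53I3, TP53INP1, TNFRSF10C, BBC3 and FAS were higher in p53+/+ cells with INZ, none was lower and 12 did not pass. The groups did not overlap in 10, all upwards, and the median difference was 0.88 with INZ and -0.14 with DMSO. Without p53+/+ INZ replicate 3, 5 genes were higher and 1 was lower, with a median of 0.75. TP53I3 (NM_147184) read 14.20, 13.90 and 14.03 in p53+/+ cells against 8.85, 9.51 and 8.42 in p53-/- cells with INZ. Its gap of 34.7-fold (22.3 to 53.9, adjusted p = 1.85e-06) was the widest of the 98 genes, and with DMSO the log2 difference was 0.65.

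TNFRSF10C, which encodes a receptor that catches TRAIL without signalling death, read 9.84, 10.10 and 10.12 against 7.08, 6.55 and 7.82 with INZ, 7.31-fold higher (4.47 to 11.9, adjusted p = 0.000891). With DMSO neither line stood out for TNFRSF10C, at 6.37, 6.38 and 6.48 against 6.18, 7.03 and 6.71. BBC3, which encodes the BH3-only protein PUMA, read 11.40, 11.59 and 10.39 against 8.58, 8.07 and 8.41 with INZ and 11.09, 10.68 and 10.09 against 9.40, 10.22 and 9.56 with DMSO. The p53+/+ arrays of the 2 treatments overlapped for BBC3, and the p53-/- arrays with INZ were the lowest of the series. Its gap with INZ was 6.82-fold (3.92 to 11.9, adjusted p = 0.00362).

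TP53INP1, a stress-induced p53 cofactor, read 9.65, 9.58 and 8.60 against 6.10, 6.50 and 6.09, 8.26-fold higher (4.97 to 13.7, adjusted p = 0.000704), with replicate 3 the lowest p53+/+ array. FAS, the receptor of the FAS ligand, read 8.12, 8.79 and 8.21 against 6.32, 6.19 and 6.28, 4.32-fold higher (adjusted p = 0.0284). The FAS call was lost without any of 7 single arrays, p53+/+ INZ replicates 1 and 2, p53-/- DMSO replicates 1 and 2 and each p53-/- INZ array, with an adjusted p of up to 0.167. BAX (NM_138761), the pore-forming apoptosis effector, read 10.97, 12.10 and 11.61 against 10.16, 9.26 and 10.67 without overlap, a log2 difference of 1.53 (0.42 to 2.64) that did not pass (adjusted p = 0.305), and it passed in none of the 23 alternative settings. Its other features gave 1.48 (adjusted p = 0.219) and 0.83 (adjusted p = 0.65).

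**Figure D3:**
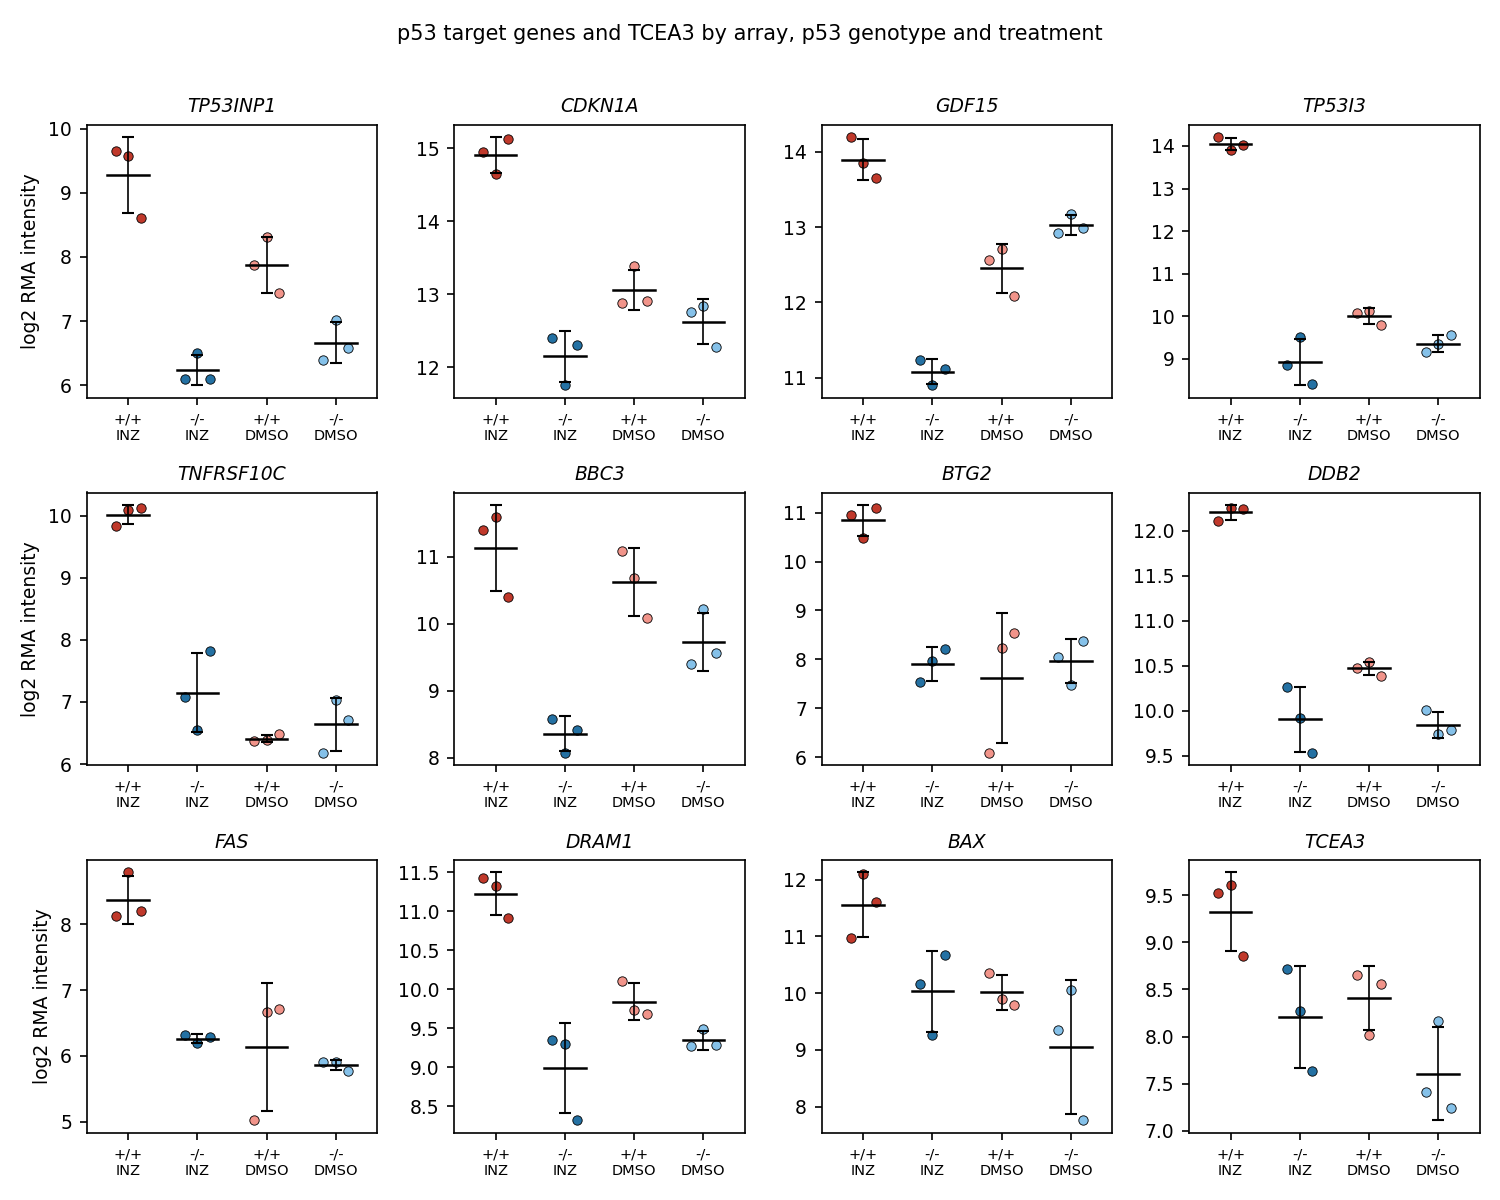
Log2 intensity of 11 p53 target genes and TCEA3 on each array (y axis), by line and treatment (x axis), with the group mean and SD (n = 3) as bars. The INZ groups do not overlap in any panel; in the GDF15 panel the order of the lines turns round between INZ and DMSO, and in the BBC3 panel the p53-/- arrays with INZ are the lowest.

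Of 24 measured p53 targets of feedback, metabolism and signalling, GDF15, DRAM1 and SULF2 were higher in p53+/+ cells with INZ, none was lower and 21 did not pass. In 15 the groups did not overlap, all upwards. The median was 0.82 with INZ and -0.22 with DMSO, and 0.90 without p53+/+ INZ replicate 3, with 4 higher and none lower. GDF15, a secreted stress cytokine, read 14.19, 13.85 and 13.65 against 11.23, 10.90 and 11.12 with INZ, 7.04-fold higher in p53+/+ cells (4.73 to 10.5, adjusted p = 0.00015). With DMSO the p53+/+ arrays lay below the p53-/- arrays (12.56, 12.71 and 12.09 against 12.92, 13.18 and 12.99), a log2 difference of -0.58 that did not pass (adjusted p = 0.415).

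DRAM1, a lysosomal protein gene of p53-dependent autophagy, read 11.43, 11.33 and 10.91 against 9.35, 9.30 and 8.32, 4.70-fold higher (2.96 to 7.46, adjusted p = 0.00488). SULF2, an extracellular heparan sulfate sulfatase, read 9.64, 9.38 and 9.57 against 6.86, 7.30 and 6.81 (2.54, adjusted p = 0.00871). The SULF2 call was lost without p53+/+ INZ replicate 1 or p53-/- INZ replicate 3 (adjusted p up to 0.0694), while another SULF2 feature gave 3.32 (adjusted p = 9.92e-05). CD82, a tetraspanin, read 9.65, 9.45 and 10.32 against 7.98, 7.79 and 7.93 and missed the threshold (1.91, adjusted p = 0.0673). MDM2 was below the median feature of the array and gave 0.17 (adjusted p = 0.927), a value that changed sign with the arrays used and carries no direction. TIGAR, a regulator of glycolysis, read 9.71, 9.94 and 9.28 against 8.48, 8.80 and 7.83 without overlap (1.27, adjusted p = 0.418).

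Further genes known as p53 targets were among the 98 and are named here after their values were seen. PRODH, proline dehydrogenase, read 11.20, 10.75 and 10.73 against 8.50, 7.34 and 8.44 with INZ, 6.97-fold higher (adjusted p = 0.00296), and 10.67, 10.53 and 9.73 against 9.68, 10.20 and 9.63 with DMSO. PHLDA3, an inhibitor of AKT, was 3.51-fold higher (adjusted p = 0.0076), SUSD6 3.77-fold (adjusted p = 0.0112) and TRIAP1, an apoptosis inhibitor, 3.06-fold (adjusted p = 0.0202). The PHLDA3, SUSD6 and TRIAP1 calls were each lost on leaving out single arrays, with an adjusted p of up to 0.0504, 0.0874 and 0.13. UCP2, a mitochondrial carrier, read 11.35, 11.55 and 11.29 against 9.52, 9.49 and 9.0 (4.17-fold, adjusted p = 0.00192) and was higher in every setting.

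TCEA3, a transcription elongation factor of the TFIIS family and the gene the series was centred on, read 9.52, 9.61 and 8.85 in p53+/+ cells against 8.72, 8.27 and 7.64 in p53-/- cells with INZ. The groups did not overlap, the lowest p53+/+ array lying just above the highest p53-/- array. The difference of 1.12 (0.35 to 1.89), 2.17-fold, did not pass (adjusted p = 0.268), and it ran from 0.81 to 1.37 over the 23 settings and passed in 2, both of which leave out p53+/+ INZ replicate 3. TCEA1 gave -0.59 (adjusted p = 0.584) and TCEA2 1.05 (adjusted p = 0.446). Of 26 measured genes of RNA polymerase II elongation none passed, with a median of -0.46 with INZ, -0.35 with DMSO and -0.56 without p53+/+ INZ replicate 3, where 1 was lower. The groups did not overlap for 3 of them upwards and for 6 downwards.

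**Figure D4:**
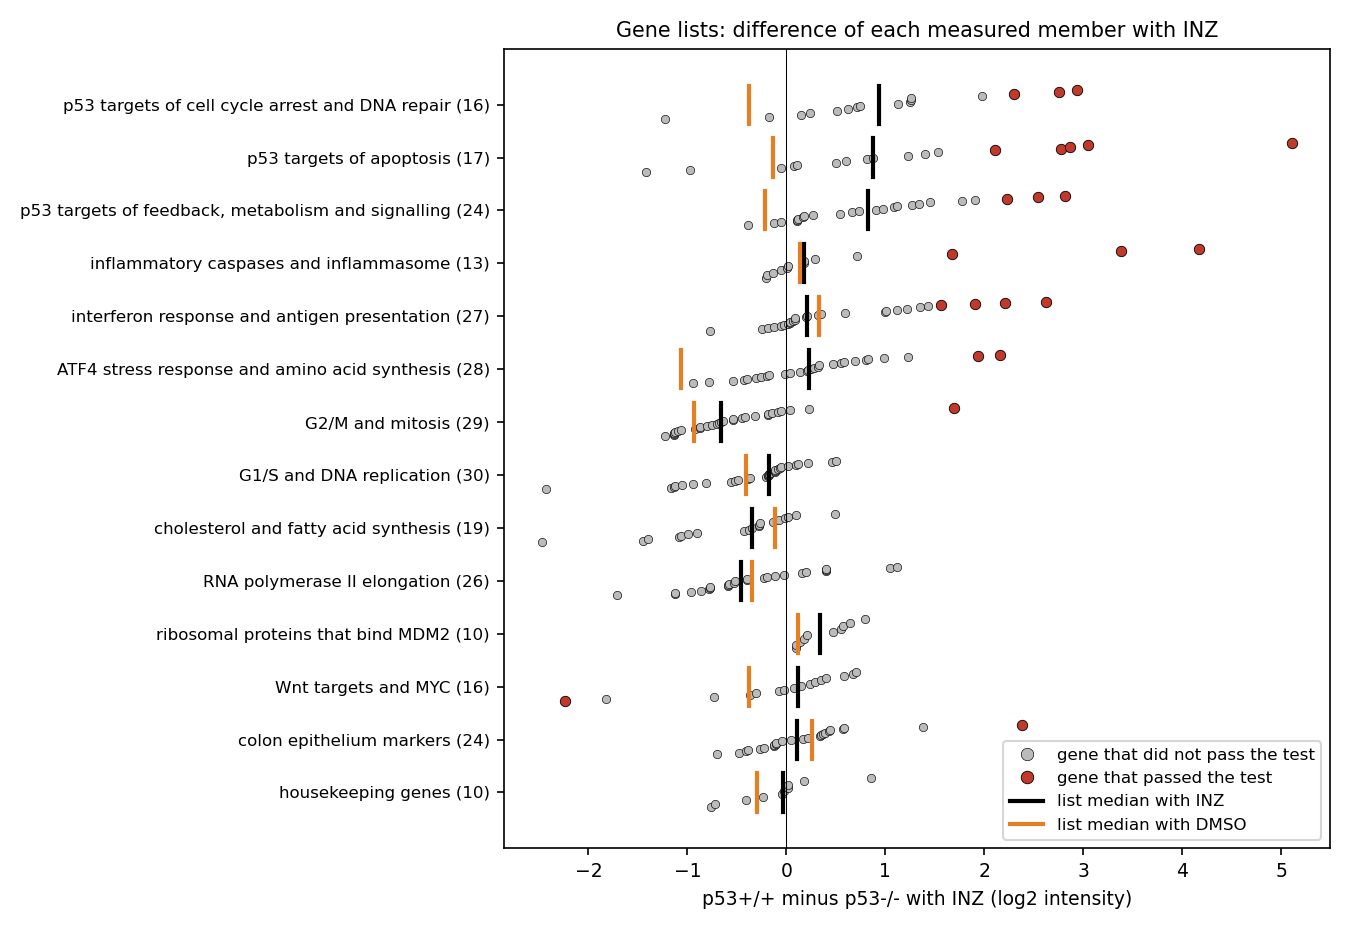
Difference between p53+/+ and p53-/- cells with INZ (x axis, log2 intensity) for each measured gene of 14 lists (rows, number of genes in brackets), red where it passed, with the list medians with INZ in black and with DMSO in orange. The 3 lists of p53 targets have medians of 0.82 to 0.94 with INZ and -0.38 to -0.14 with DMSO, and the mitosis list has medians of -0.66 and -0.93.

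The genotype difference with INZ was also tested against that with DMSO. It was larger with INZ for 8 features, 0.0178% of all, and smaller for none, while 2119 features (4.71%) had an unadjusted p under 0.05. ATF3, a stress-induced transcription factor, was the gene that passed in opposite directions under the 2 treatments. It read 10.43, 10.41 and 10.72 against 8.55, 8.64 and 8.55 with INZ (3.84-fold higher in p53+/+ cells, 2.61 to 5.66, adjusted p = 0.00358) and 7.30, 7.55 and 7.94 against 9.17, 8.79 and 9.15 with DMSO (-1.44, adjusted p = 0.0396). ATF3 was thus lower in p53+/+ cells with DMSO and higher in them with INZ, and the INZ call held in every setting.

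ATF3 is a member of a list of 28 measured genes of the ATF4 stress response and amino acid synthesis, a program that cells turn on when amino acids run short or protein folding is disturbed. NUPR1 was the other gene of the list that was higher with INZ (8.99, 8.64 and 7.76 against 6.89, 6.02 and 6.02, 4.46-fold, adjusted p = 0.027), and none was lower. Both are also induced by other stresses. With DMSO NUPR1 read 9.77, 8.53 and 8.80 against 9.30, 9.32 and 8.93. Its p53-/- arrays with INZ lay below those with DMSO, and its p53+/+ arrays with INZ did not lie above those with DMSO. The NUPR1 call was lost without p53+/+ INZ replicates 1 or 2 or p53-/- INZ replicates 2 or 3, with an adjusted p of up to 0.181. The list median was 0.23 with INZ and -1.06 with DMSO, and 0.05 without p53+/+ INZ replicate 3, with 3 genes higher. DDIT4, a gene that holds mTORC1 down, had INZ groups without overlap and gave 1.23 with INZ (adjusted p = 0.287) and -1.69 with DMSO.

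CASP4 and CASP5, the neighbouring genes of the human inflammatory caspases that sense lipopolysaccharide in the cytosol, set the lines apart under both treatments. CASP4 read 9.68, 9.97 and 9.40 in p53+/+ cells against 5.66, 5.68 and 5.20 in p53-/- cells with INZ, 18.0-fold higher (12.1 to 26.9, adjusted p = 4.94e-06), and its log2 difference was 4.17 with INZ and 4.66 with DMSO. CASP5 read 8.94, 9.54 and 8.90 against 5.87, 5.38 and 5.98 with INZ, 10.4-fold higher (6.51 to 16.7, adjusted p = 0.000141), and its differences were 3.38 and 4.10. In p53-/- cells both genes lay below the median feature of the array (6.41). The 2 genes have similar sequences, and whether probes of one bind transcripts of the other was not tested.

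Of 13 measured genes of inflammatory caspases and the inflammasome, the third to pass was NLRP1, a sensor protein of the inflammasome (9.45, 9.46 and 9.62 against 7.89, 7.57 and 8.08, 3.17-fold, adjusted p = 0.0167). Its call was lost on leaving out any INZ array but p53+/+ replicate 3 (adjusted p up to 0.114), and with DMSO its difference was 0.46. None was lower and 10 did not pass. The list median was 0.18 with INZ and 0.14 with DMSO, and 0.23 without p53+/+ INZ replicate 3 with the same number of calls. Of the 13 genes 8 lay below the median feature, and with features at or above it alone the median was 1.67.

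Other genes kept a wide gap under both treatments. NPM2, a nucleoplasmin family histone chaperone, read 9.19, 9.39 and 8.45 against 5.38, 5.48 and 4.77 with INZ, with differences of 3.80 with INZ and 3.76 with DMSO. RGS2, a regulator of G protein signalling, read 9.54, 9.74 and 9.89 against 7.32, 7.16 and 7.05, with differences of 2.55 and 3.19. KRT23, an epithelial keratin, read 10.15, 10.49 and 9.42 against 7.28, 6.74 and 6.34 with INZ and lay higher in both lines with DMSO (11.24, 10.84 and 10.61 against 8.17, 8.54 and 8.66). Its gap was 9.38-fold with INZ (adjusted p = 0.000427). S100A4, a calcium-binding protein gene named after its values were seen, was bright in both lines (14.56, 14.81 and 13.77 against 12.56, 12.47 and 11.64, adjusted p = 0.00986), and its call was lost without any of 3 INZ arrays (adjusted p up to 0.0707).

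**Figure D5:**
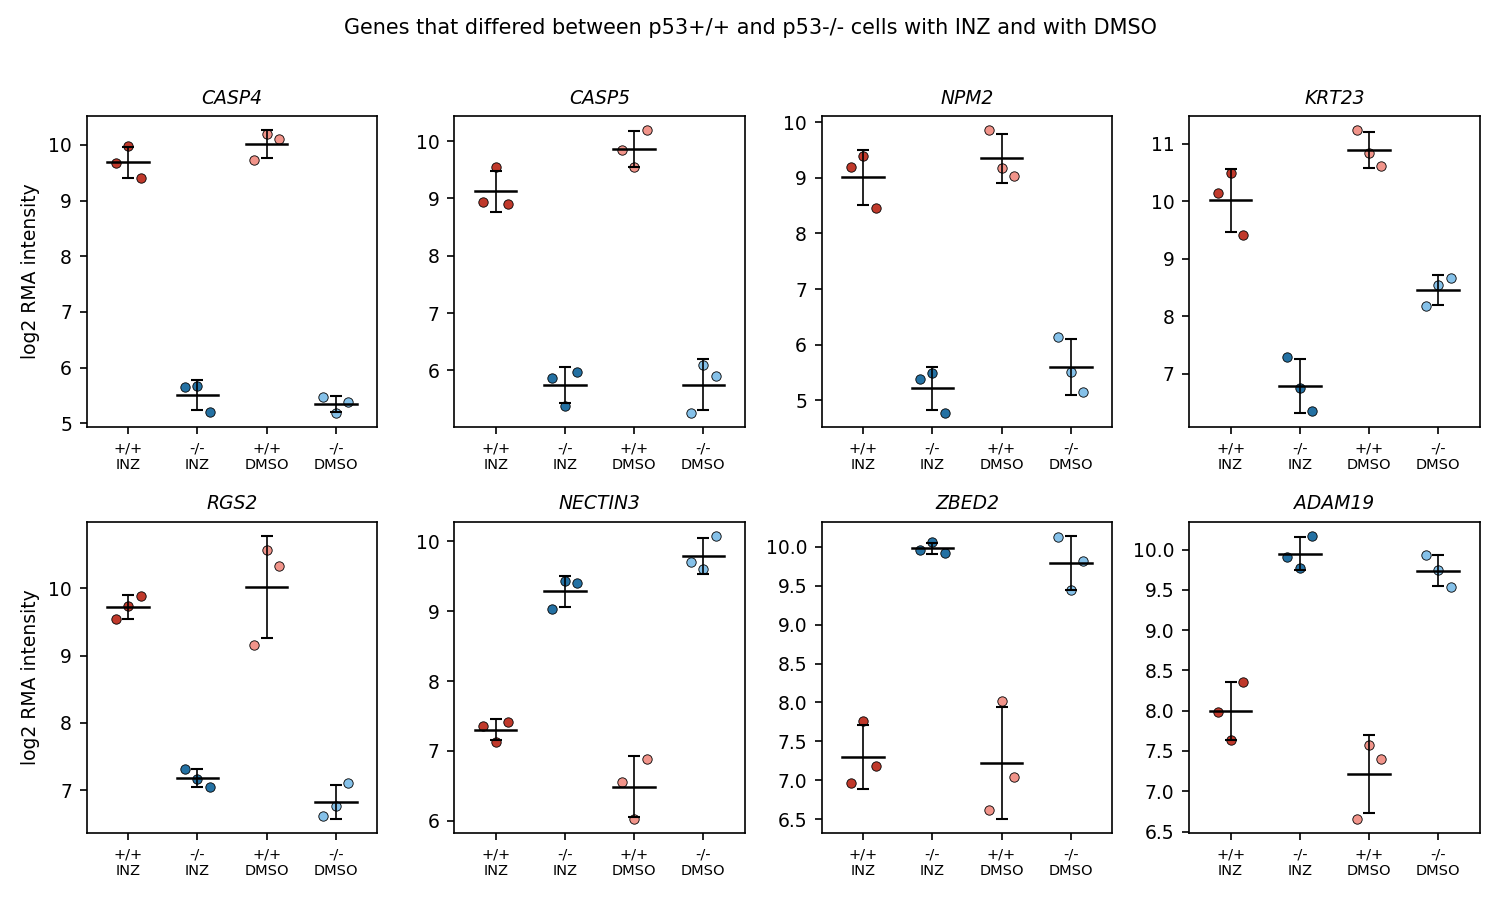
Log2 intensity on each array (y axis) of 5 genes higher and 3 genes lower in p53+/+ cells under both treatments, by line and treatment (x axis), with the group mean and SD (n = 3) as bars. CASP4 stands at 9.40 to 9.97 in p53+/+ and 5.20 to 5.68 in p53-/- cells with INZ, and its log2 difference is 4.17 with INZ and 4.66 with DMSO; ZBED2, NECTIN3 and ADAM19 show the reverse order.

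Genes of the interferon response and of antigen presentation also passed. Of 27 measured, TAP1, BST2, IFI6 and PSMB9 were higher in p53+/+ cells with INZ, none was lower and 23 did not pass; the groups did not overlap in 10, all upwards. The list median was 0.21 with INZ and 0.33 with DMSO, and 0.31 with 6 genes higher without p53+/+ INZ replicate 3. With features at or above the median feature alone it was 0.79. TAP1, a subunit of the peptide transporter that loads MHC class I, read 12.49, 12.45 and 12.50 against 10.91, 11.06 and 10.79 with INZ, 2.95-fold higher (2.07 to 4.22, adjusted p = 0.00953). With DMSO its difference was 0.53, with TAP1 at 10.73, 11.18 and 11.02 against 10.40, 10.56 and 10.38.

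PSMB9, an immunoproteasome subunit and the gene next to TAP1, differed under both treatments (1.91 with INZ, adjusted p = 0.0223, and 2.17 with DMSO). BST2, a membrane tether of viruses, read 7.50, 9.01 and 8.14 against 5.82, 5.02 and 5.96 with INZ and gave differences of 2.62 and 3.26. IFI6, an interferon-induced mitochondrial protein gene, gave 2.21 and 2.13. B2M, the light chain of MHC class I, gave 1.43 and missed the threshold (adjusted p = 0.0628), whereas HLA-B gave 0.04. The calls of TAP1, PSMB9, BST2 and IFI6 were lost without single INZ arrays, with adjusted p-values of up to 0.0651, 0.143, 0.125 and 0.135. IFITM1, IFI35 and TRIM38, named after their values were seen, were also higher with INZ (3.89-fold, 3.96-fold and 2.84-fold), and so was the class II gene HLA-DRA (3.75-fold). Their calls were lost without single arrays too, with adjusted p-values of up to 0.176, 0.172, 0.149 and 0.174. In the same order, their log2 differences were 1.96, 1.99, 1.51 and 1.91 with INZ and 2.34, 1.88, 1.68 and 1.02 with DMSO.

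Among the genes with the widest gaps outside these lists, ALOX5, the 5-lipoxygenase of leukotriene synthesis, read 9.66, 9.46 and 9.09 against 5.22, 6.08 and 5.47 with INZ, 14.0-fold higher (8.52 to 23.1, adjusted p = 0.00011), with a log2 difference of 2.16 with DMSO. ACTA2, smooth muscle actin, read 9.98, 9.85 and 9.60 against 6.79, 5.39 and 6.0, 13.4-fold higher (7.51 to 24.1, adjusted p = 0.000425). For both genes the p53+/+ arrays with INZ lay wholly above the DMSO arrays of that line, and the call held in every setting.

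GRIN2C, an NMDA receptor subunit, read 10.99, 11.07 and 9.62 against 7.19, 7.17 and 6.21 with INZ (13.0-fold, adjusted p = 0.00103) and 6.41, 7.59 and 6.84 against 7.01, 6.59 and 6.33 with DMSO, where the groups overlapped. SORCS2, a sorting receptor of the VPS10 family, read 8.43, 8.37 and 8.59 against 5.41, 4.82 and 5.42 with INZ (9.51-fold, adjusted p = 0.000395), with a DMSO difference of 0.32. NECTIN4, a cell adhesion molecule, and ADGRF1, an adhesion G protein-coupled receptor, gave 9.24-fold (adjusted p = 0.0125) and 8.32-fold (adjusted p = 0.0202). The NECTIN4 and ADGRF1 calls were lost without 3 and 5 of the INZ arrays in turn, with adjusted p-values of up to 0.0968 and 0.136. GRHL3, a transcription factor of epithelial barriers, read 7.77, 7.65 and 8.35 against 6.08, 5.62 and 5.82 with INZ (4.24-fold, adjusted p = 0.00587). CXCR2, a chemokine receptor, and INPP5D, an inositol phosphatase of blood cells, are better known from leukocytes. CXCR2 read 7.50, 6.68 and 7.01 against 5.02, 4.98 and 4.99 (4.19-fold, adjusted p = 0.00419), and INPP5D read 8.0, 7.74 and 7.75 against 6.07, 5.66 and 5.34 (4.43-fold, adjusted p = 0.00427). Both had differences near 0 with DMSO (0.09 and -0.22), and both passed in every setting in which they were tested.

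In a further set, the p53-/- arrays with INZ stood below the DMSO arrays of that line. SYTL1, a synaptotagmin-like vesicle protein, read 10.53, 10.87 and 10.98 in p53+/+ cells against 8.34, 8.45 and 8.13 in p53-/- cells with INZ, against 10.92, 10.50 and 10.50 and 10.36, 10.55 and 9.93 with DMSO. B3GALT6, a galactosyltransferase of proteoglycan assembly, was lower with INZ in both lines (9.68, 10.03 and 9.56 against 7.87, 7.55 and 7.49) than with DMSO (11.53, 11.40 and 11.08 against 10.82, 11.20 and 10.59). ARVCF, a catenin, and TMEM151A, a membrane protein gene, had p53-/- arrays arranged in the same way, with gaps of 4.65-fold and 5.03-fold with INZ. These 4 genes were higher in p53+/+ cells in every setting. RPTOR, the mTORC1 scaffold, was 3.07-fold higher (10.37, 10.83 and 10.75 against 9.50, 8.75 and 8.85) while its DMSO arrays read 11.66, 11.87 and 11.58 against 11.70, 11.80 and 11.81. The RPTOR call was lost without any of 3 INZ arrays (adjusted p up to 0.113).

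The lower genes were led by ZBED2, which read 6.97, 7.76 and 7.18 in p53+/+ cells against 9.96, 10.06 and 9.92 in p53-/- cells with INZ, 6.39-fold lower (3.76 to 10.8, adjusted p = 0.00358). NECTIN3, a cell adhesion molecule whose gene lies 1 protein-coding gene away from ZBED2, read 7.36, 7.13 and 7.42 against 9.03, 9.43 and 9.40, 3.94-fold lower (2.58 to 6.02, adjusted p = 0.00592). Both were lower with DMSO too (-2.57 and -3.30) and lower in every setting. ADAM19, a metalloprotease, gave -1.95 with INZ and -2.53 with DMSO, and BMP4, a bone morphogenetic protein, gave -1.71 and -1.81 (10.19, 10.51 and 10.72 against 12.18, 12.24 and 12.12 with INZ).

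AXIN2, the one member of 16 measured Wnt targets and MYC to pass, read 5.69, 6.09 and 7.06 against 8.33, 8.61 and 8.63 with INZ, 4.72-fold lower (adjusted p = 0.00943), with replicate 3 nearest to the p53-/- arrays. The list median was 0.12 with INZ, -0.38 with DMSO and 0.12 without p53+/+ INZ replicate 3, where 1 gene was lower. WNT16, a Wnt ligand, was 3.12-fold lower (adjusted p = 0.0235), and DLX1, a homeobox transcription factor, 4.23-fold lower (adjusted p = 0.0112). CDK6, a cyclin D-dependent kinase of the cell cycle, read 6.37, 6.90 and 6.52 against 8.29, 8.01 and 8.21, 2.97-fold lower (adjusted p = 0.0308). RBM15, an RNA-binding protein of the m6A writer complex, read 7.94, 8.21 and 7.97 against 10.20, 9.38 and 9.40 with INZ (-1.62, adjusted p = 0.0221) and gave 0.18 with DMSO, where the groups overlapped.

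Of the 17 lower genes, ZBED2 and NECTIN3 passed in every setting. Leaving out single arrays other than p53+/+ INZ replicate 3 lost the calls of ADAM19, BMP4, AXIN2, WNT16, DLX1, CDK6 and RBM15, with adjusted p-values of up to 0.077, 0.157, 0.0694, 0.143, 0.0795, 0.167 and 0.111. The same held of CHPT1 (-2.06, up to 0.132), TIMM17B (-1.80, up to 0.136), RIMS2 (-1.79, up to 0.0604), POLR3G (-1.64, up to 0.213), CRY1 (-1.43, up to 0.207), SH3RF2 (-1.37, up to 0.249) and STIL (-1.34, up to 0.217). ZDHHC2, a palmitoyltransferase, was the last of the 17 (-1.36, up to 0.231).

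Of 29 measured genes of G2/M and mitosis, 26 had a negative difference with INZ, and the median was -0.66 with INZ and -0.93 with DMSO. Their median level on each array was 10.24, 10.19 and 10.64 in p53+/+ cells against 10.94, 11.18 and 11.07 in p53-/- cells, so that the groups did not overlap and replicate 3 lay between. The groups did not overlap downwards for 14 of the genes and upwards for 1. BUB1B, a checkpoint kinase, gave -1.14 (adjusted p = 0.17), FOXM1, the transcription factor of mitotic genes, gave -1.14 (adjusted p = 0.294), and PLK1 gave -1.14 (adjusted p = 0.368). The single call was upwards, MAD1L1, a checkpoint protein gene (9.62, 9.93 and 10.08 against 8.49, 8.22 and 7.84, 3.23-fold, adjusted p = 0.0107), which was lost without any of 3 INZ arrays (adjusted p up to 0.0773). Without p53+/+ INZ replicate 3, 3 genes of the list were lower, BUB1B (-1.31, adjusted p = 0.0496) and FOXM1 (-1.65, adjusted p = 0.0144) among them, and 1 was higher, with a median of -0.69.

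Of 30 measured genes of G1/S and DNA replication none passed, with a median of -0.18 with INZ and -0.41 with DMSO, and without p53+/+ INZ replicate 3 the median was -0.31 with 2 lower. RRM2, the ribonucleotide reductase subunit of S phase, had replicate 3 far from the other p53+/+ arrays. It read 7.72, 6.46 and 10.39 in p53+/+ cells against 10.12, 10.64 and 11.10 in p53-/- cells, a log2 difference of -2.43 (adjusted p = 0.212) that became -3.52 (adjusted p = 0.00256) without that array. INSIG1, a sterol sensor gene of the cholesterol list, read 6.38, 5.18 and 8.10 against 8.93, 9.07 and 9.07, and its difference went from -2.47 (adjusted p = 0.081) to -3.24 (adjusted p = 0.00345). Of the 19 cholesterol and fatty acid synthesis genes none passed (median -0.35), and 2 were lower without replicate 3 (median -0.56).

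Few markers of cell types passed. Of 24 measured colon epithelium markers, MUC2, the gel-forming mucin of goblet cells, was higher in p53+/+ cells with INZ (7.52, 8.72 and 8.53 against 6.25, 5.35 and 6.04, 5.20-fold, adjusted p = 0.00822), and 13 of the 24 lay below the median feature. The MUC2 call was lost without p53+/+ INZ replicate 2 or p53-/- INZ replicate 2 (adjusted p up to 0.059). Without p53+/+ INZ replicate 3, 2 colon markers were higher, MUC2 and CLDN3 (1.54, adjusted p = 0.0224). None of the fibroblast, leukocyte and endothelial markers passed, and 12 of 16, 10 of 12 and 6 of 6 of them lay below the median feature. Of 25 glycolysis and hypoxia genes ADM, the vasodilator peptide adrenomedullin, was higher (3.20-fold, adjusted p = 0.01), lost without any of 4 INZ arrays (adjusted p up to 0.0756). Without p53+/+ INZ replicate 3, ADM was still higher and SLC2A1 was lower (-1.83, adjusted p = 0.0241). The 10 measured ribosomal proteins that bind MDM2 all had a positive difference with none past the threshold (median 0.34 with INZ, 0.12 with DMSO and 0.55 without p53+/+ INZ replicate 3).

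Promoter sequences were searched for the p53 half-site of 10 letters, the unit that p53 binds in pairs, to give the sequence context of the higher genes. Promoters were taken from RefSeq (GRCh38.p14, 250 bases before to 50 after the start). The half-site pattern, which allows several letters at most positions, has the same form on both strands, so a single search covers both. Of the 98 higher genes, 74 matched a promoter, and 6 of these (8.11%) held a half-site, against 1786 of 27305 promoters in all (6.54%) and 814 of 13780 promoters of genes on the array (5.91%). None of the 13 matched lower genes held one. The 6 genes were ACTA2, ADGRF1, CXCR2, SNCG, ABCA12 and NIPAL3. ACTA2 and ADGRF1 are shown because they had the widest gaps of the 6, with half-sites in capitals. In ACTA2 the half-sites begin 219 bases before and 20 bases after the start, and in ADGRF1 53 bases before it. No half-site was found for CDKN1A, TP53I3 and FAS. That says only that these letters are not in this window, or that no promoter was matched to the gene. FAS is the gene adjacent to ACTA2, and the search does not show which gene a half-site in the ACTA2 window serves.
ACTA2, chr10:88991288-88991587, minus strand: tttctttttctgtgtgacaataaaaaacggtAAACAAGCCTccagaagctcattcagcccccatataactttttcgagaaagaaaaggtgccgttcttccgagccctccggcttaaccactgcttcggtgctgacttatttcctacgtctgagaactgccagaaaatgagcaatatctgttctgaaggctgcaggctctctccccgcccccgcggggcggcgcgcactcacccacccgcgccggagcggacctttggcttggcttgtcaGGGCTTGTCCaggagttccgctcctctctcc
ADGRF1, chr6:47042283-47042582, minus strand: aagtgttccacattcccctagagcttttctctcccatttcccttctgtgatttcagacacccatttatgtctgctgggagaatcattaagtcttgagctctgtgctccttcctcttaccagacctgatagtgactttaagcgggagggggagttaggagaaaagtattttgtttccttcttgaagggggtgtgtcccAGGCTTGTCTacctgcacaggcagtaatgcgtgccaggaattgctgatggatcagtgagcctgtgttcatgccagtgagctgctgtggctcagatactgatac

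The 115 genes were also placed in the RefSeq order of protein-coding genes. In 9 pairs, 2 genes that passed lay with no more than 2 others between them, and 8 of the pairs ran in the same direction. With 98 of the 115 genes higher, most pairs drawn at random would also share a direction, and the counts were not tested. Adjacent pairs included ACTA2 with FAS, CASP4 with CASP5 and TAP1 with PSMB9. GRHL3 with NIPAL3, TMEM151A with RIN1 and NECTIN3 with ZBED2 had 1 gene between them. The pair in opposite directions was CHPT1, lower in p53+/+ cells, and DRAM1. ACTA2 and FAS both stood in p53+/+ cells with INZ above the DMSO arrays of that line, and CASP4 and CASP5 differed between the lines under both treatments.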

How the data were processed

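RNA of HCT116 p53+/+ and p53-/- cells, given 4 μM INZ or DMSO for 18 hours, was extracted with TRIzol and hybridised to one-colour NimbleGen arrays (12 arrays, 3 in each of 4 groups). The authors deposited RMA-normalised intensity values on a linear scale, already summarised per probe set; the RMA version is not given in the sources used here. RMA makes the overall distributions of the arrays alike, so a shift of all genes together cannot be seen. The slide and scan of each array are not given either, and no batch could be tested. The number of arrays limits the precision.

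Intensities were taken to log2 with no pseudocount and no filter. limma 3.58.1 in R 4.3.3 fitted 1 mean per group to all 12 arrays, so that the groups shared 1 estimate of spread, and tested p53+/+ minus p53-/- with INZ, the same with DMSO, and the difference of both, each adjusted over 45033 features at a threshold of 0.05. The script was tested on simulated data first. Gene names came from the platform annotation table for 18188 features and through RefSeq accessions for 678, and 26167 features stayed unnamed. Genes named were those the study discusses, the 15 with the widest gap in each direction, the 4 of smallest p in each list, those past the test of the difference, those opposite under the 2 treatments, and the 10 strongest under both treatments; others are said to be chosen after their values were seen or belong to the genes kept in every setting, to a count or to a pair of neighbours. Some items that this rule names are not reported here. Members and gene lists were chosen with earlier results of these data known. The alternatives tried were an intensity trend, the 6 INZ arrays only, bright features only, quantile normalisation, median centring, array weights, a replicate block, at least a 2-fold gap, a gene's features averaged, each array left out, p53+/+ DMSO replicate 1 and p53+/+ INZ replicate 3 left out together, each array's lower quartile as a covariate, and, added after seeing the data, the INZ arrays alone without p53+/+ INZ replicate 3. Python 3.11.15 with matplotlib 3.10.9 drew the figures.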

Additional observations from a re-analysis of the deposited data

Results flagged for a closer look

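The genotype difference was larger with INZ than with DMSO for 8 features by limma's test of the difference between both (12 arrays, adjusted over 45033 features). The 2 features of TP53I3 gave 4.47 (NM_147184, adjusted p = 0.000982) and 4.37 (NM_004881, adjusted p = 0.000842) on the log2 scale. GDF15 gave 3.39 (adjusted p = 0.00322) and ATF3 3.38 (adjusted p = 0.00321), and in both the p53+/+ arrays lay wholly below the p53-/- arrays with DMSO and wholly above them with INZ. Of the CDKN1A features, NM_000389 passed at 2.44 (adjusted p = 0.0465). The other 3 features carry no gene name here. Feature AF218028 gave 4.19 (adjusted p = 0.00328, from 3.72 with INZ and -0.47 with DMSO), BC112941 gave 3.92 (adjusted p = 0.00321, from 4.24 and 0.33) and BC008962 gave 3.34 (adjusted p = 0.00831, from 2.77 and -0.57).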

How the results depend on the processing

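The count of 218 features that differed with INZ was 129 with the 6 INZ arrays alone, 2469 with array weights, 4298 without p53+/+ DMSO replicate 1 and p53+/+ INZ replicate 3 together, 4320 with 5 INZ arrays alone, without p53+/+ INZ replicate 3, and 59 (without p53-/- INZ replicate 3) to 1652 (without p53+/+ INZ replicate 3) on leaving out 1 array. With array weights, p53+/+ INZ replicate 3 had a weight of 0.373 and p53+/+ DMSO replicate 1 the lowest of the series, 0.305. Why these arrays stood apart was not tested. The 95 features with DMSO became 6 with the 6 DMSO arrays alone, 190 with array weights, 34 with every array's lower quartile of intensity as covariate, and 17 (without p53-/- DMSO replicate 1) to 525 (without p53+/+ DMSO replicate 3). Without p53+/+ DMSO replicate 1, 45 features passed with DMSO. The 8 features of the difference between both became 15 with an intensity trend, 30 with array weights, 22 with the covariate and 7 to 10 on leaving out 1 array. The cause of these moves was not tested. For the named genes, 3542 values under the alternatives kept their direction and side of the threshold, 282 fell short of it and the others crossed it or turned sign, and of the list medians 617 moved within their spread and 54 beyond it. With the covariate the list median fell in size to -0.36 for G2/M and mitosis, -0.02 for G1/S and -0.04 for RNA polymerase II elongation, and was 0.15 for the ribosomal proteins that bind MDM2 and 1.33 for p53 targets of apoptosis. No feature that passed with INZ changed sign under the 23 alternatives that refitted all features, and 30 of 115 genes passed under each of these in which they were tested (22 for SORCS2, INPP5D and CXCR2). Averaging a gene's features was tried for the lists and for named genes with several features only.

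Of the genes named by the rule, 5 that did not pass turned sign. MDM2 (0.17) was -0.07 with array weights and -0.35 in each setting without p53+/+ INZ replicate 3, and ran from -0.35 to 0.50 with 1 array left out. CDH5 (-0.11) was 0.08 with array weights and 0.07 without that replicate, and ran from -0.29 to 0.07. PECAM1 (-0.14) ran from -0.40 to 0.18 (without p53-/- INZ replicate 1) and was 0.11 with the covariate, which also took ATP5MC1 (0.44) to 0.00 and CD79A (0.53) to -0.02. The deviations of same-numbered arrays correlated at -0.0181, 0.168 and 0.314 with INZ and at -0.13, -0.0409 and 0.0521 with DMSO. Differently numbered arrays were not compared in this way, so whether replicate numbers pair the arrays was not settled. With the replicate block 212 features passed with INZ, and 181 of the 218 features of the full set were among them.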
